A study of Homo sapiens with 25 samples.

Results

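RNA that came down with the S181E mutant of IGF2BP1 was compared with RNA that came down with the wild-type protein, in unstressed cells. The comparison took 6 of the 25 RIP-seq libraries of the series, chosen by their labels: 3 S181E control and 3 wild-type control libraries. All 6 came from HCT116 human colorectal carcinoma cells of the genotype IGF2BP2 KO, IGF2BP3 KO and Tet-OsTIR1-PURO, with mCherry-IGF2BP1 WT or mCherry-IGF2BP1 S181E, and all 6 received PBS as the control for arsenite. Parental HCT116 cells without the fusion protein gave 1 control library as background for the beads. Libraries of the Y396E and RQ mutants and of arsenite-treated cells were also used, and all 23 mCherry libraries entered 1 model. Y396E is a phosphomimetic change in the second linker, and RQ has arginines of the first linker replaced by glutamine. Each line was 1 population sorted within a narrow mCherry gate after lentiviral transduction, so a difference between populations and an effect of the mutation cannot be told apart. The dishes behind the replicates were plated and grown independently, and the p-values measure the spread between such dishes of 1 population each. Total RNA of the lysates was not analysed here. Less RNA in the lysate and less binding per RNA molecule cannot be told apart in any value given below.

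IGF2BP1 is an oncofetal RNA-binding protein that carries RNA recognition motifs and KH domains joined by disordered linkers, and it is known for localizing, stabilizing and controlling the translation of its target mRNAs. The classical target is the zipcode of beta-actin mRNA, and other well-known targets are MYC, HMGA1, HMGA2 and IGF2. The serine replaced in S181E lies in the first linker, and glutamate there mimics a phosphorylated serine. In RNA immunoprecipitation the tagged protein is captured from a lysate, and the sequenced RNA reports how much of each transcript came down with it.

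The wild-type control libraries held 37942065, 23562686 and 22246381 counts, and the S181E control libraries held 32398929, 23063983 and 30877811. The parental control library was far shallower, with 1238013 counts. Values are CPM, library-size-scaled counts adjusted by TMM, and 8734 protein-coding genes exceeded 10 CPM in enough libraries to be tested. Pearson's correlation of log2 CPM over the tested genes was 0.940 to 0.966 between wild-type libraries, 0.959 to 0.985 between S181E libraries and 0.926 to 0.963 between the groups. Colon epithelial markers had counts for 8 of 8 genes, with a summed level of 1032 to 1324 CPM in wild-type and 845.5 to 1081 CPM in S181E libraries. Fibroblast markers summed to 1.58 to 6.39 CPM in wild-type and 5.32 to 9.73 CPM in S181E, with COL1A2, COL3A1 and LUM at 0. Endothelial markers stayed at or below 2.32 CPM, leukocyte markers at or below 1.61 CPM with PTPRC and CD3E among those at 0, and markers of differentiated colonocytes and goblet cells at or below 28.3 CPM with AQP8, SLC26A3 and TFF3 at 0.

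The mRNA of the bait did not separate the groups. IGF2BP1 had 70.1, 68.1 and 60.9 CPM in the wild-type and 65.9, 68.0 and 65.1 CPM in the S181E libraries, with 0 counts in the parental library. The groups overlapped, and the log2 fold change of S181E over wild-type was 0.01 ± 0.12 (SE, edgeR adjusted p = 0.97). These counts check the presence of the transgene and not the mutation itself. The mRNAs of the knocked-out paralogs were still counted, which says nothing of their protein. IGF2BP2 mRNA had 213, 173 and 247 CPM in wild-type and 235, 219 and 273 CPM in S181E, and the difference did not pass the test (edgeR adjusted p = 0.32). IGF2BP3 mRNA had 227, 247 and 261 CPM in wild-type against 425, 401 and 429 CPM in S181E. All S181E libraries lay above all wild-type libraries for this mRNA, a 1.72-fold rise (log2 fold change 0.78 ± 0.08, SE, edgeR adjusted p = 2.8e-07).

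The recovery of many mRNAs differed between S181E and wild-type, mostly by modest factors. Of the 8734 tested genes, 699 (8%) were called lower and 1119 (12.8%) higher in S181E, together 20.8% of all genes, at an edgeR adjusted p under 0.05 and a change above 20%. The called lower genes had a median log2 fold change of -0.60 and the called higher genes one of 0.51, and 69 and 53 of them changed at least 2-fold. The groups of 3 libraries did not overlap for 2281 genes, which is 26.1% of those tested. The most abundant mRNAs leaned to the lower side: among the 100 with the highest mean level, 30 were called lower and 8 higher, with a median log2 fold change of -0.20 beside 0.05 over all tested genes. Among the 500 highest the counts were 82 and 72, with a median of -0.04. The split between directions moved with the scaling, since scaling by total counts alone gave 381 lower and 2431 higher and moved the median of all genes to 0.22, while TMM restricted to genes no higher than in the parental library gave 769 lower and 696 higher. A model of these 2 groups alone called 247 lower and 178 higher of 8562 genes, and it lost the calls of 41 of the 111 genes called and named by rule.

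**Figure D1:**
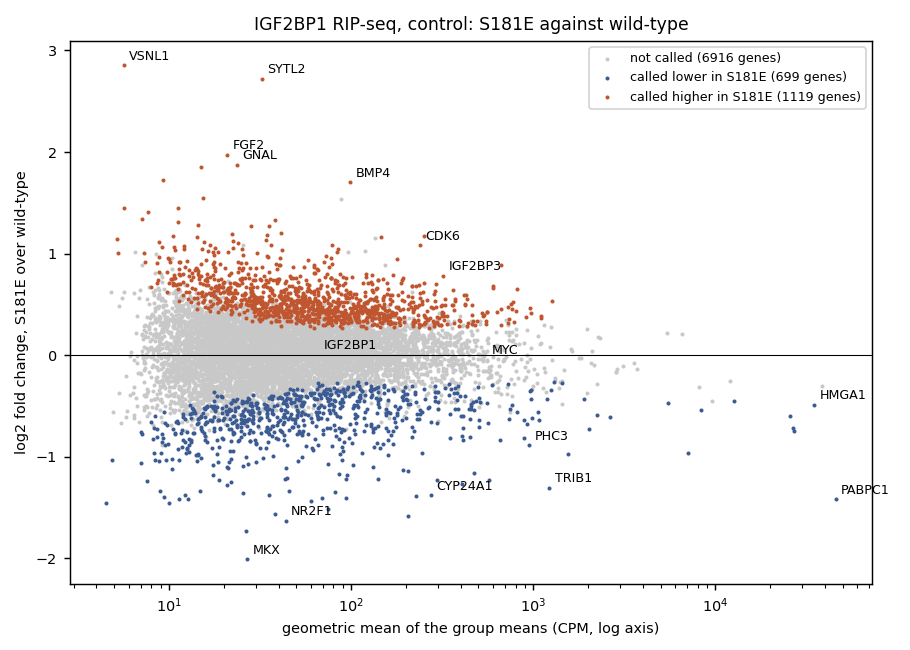
Log2 fold change of S181E over wild-type under control conditions (vertical axis) against the geometric mean of the 2 group means in CPM (horizontal log axis), 1 point per tested gene, with 699 genes called lower in blue, 1119 called higher in red and uncalled genes in grey. PABPC1, the most abundant of the labelled mRNAs, lies at -1.42, while SYTL2 lies at 2.72 and MYC and IGF2BP1 lie near 0.

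PABPC1, the cytoplasmic poly(A)-binding protein that coats mRNA tails and whose own mRNA is a known partner of IGF2BP1, was the most abundant protein-coding transcript to fall. Its level was 70826, 73331 and 80510 CPM in the wild-type and 28786, 26044 and 28719 CPM in the S181E libraries. Every S181E library lay below every wild-type library, a 2.67-fold drop (log2 fold change -1.42 ± 0.12, SE, edgeR adjusted p = 3.4e-08). PABPC1 alone took 6.44 ± 0.150% (SD, n = 3) of the protein-coding counts in wild-type and 2.71 ± 0.101% (SD, n = 3) in S181E. In the parental control library it had 3019 counts, and the wild-type mean stood 36.8-fold above that level. The gene lies on chromosome 8 (hg38, chr8:100702051-100722762, minus strand), in a stretch described below where most genes moved the same way. In the RQ control libraries PABPC1 stood at a log2 fold change of -0.57 against wild-type, while the median of that stretch was 0.05. It took 4.61 ± 0.412% (SD, n = 3) of the protein-coding counts there.

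The deepest fall among the calls without overlap was that of MKX, the homeobox factor mohawk of tendon and mesenchymal cells, from 38.4, 51.5 and 72.8 CPM in wild-type to 11.6, 12.2 and 16.2 CPM in S181E. The groups stood well apart, with a 4.02-fold drop (log2 fold change -2.01 ± 0.22, SE, edgeR adjusted p = 7.5e-07). Other deep falls outside chromosome 8 were those of EPN3, an epsin of clathrin-coated membranes (-1.73), the nuclear receptor NR2F1 (-1.63) and SAT1, which acetylates polyamines (-1.51). CYP24A1, the enzyme that degrades active vitamin D, was among the calls with the lowest p. It had 412, 458 and 465 CPM in wild-type and 195, 153 and 161 CPM in S181E libraries. No values overlapped, and the drop was 2.60-fold (log2 fold change -1.38 ± 0.10, SE, edgeR adjusted p = 4.2e-09). SCD, the desaturase that makes monounsaturated fatty acids, fell 2.35-fold, from 879.7 ± 63.6 CPM (SD, n = 3) to 372 ± 47.1 CPM (SD, n = 3). The Polycomb protein PHC3 fell from 1165, 1393 and 1335 CPM to 724, 658 and 708 CPM, again without overlap and with 0 counts in the parental library. Its log2 fold change was -0.89 ± 0.09 (SE, edgeR adjusted p = 5.5e-07). MXD4, a MAX partner that opposes MYC, fell 2.25-fold (edgeR adjusted p = 3.4e-08).

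The largest rises were found at low to middle levels. VSNL1, a neuronal calcium sensor, had 4.84, 1.12 and 0 CPM in wild-type and 17.3, 13.8 and 17.3 CPM in S181E, so that its fold rests on very few wild-type reads (log2 fold change 2.85 ± 0.53, SE, edgeR adjusted p = 0.00051). Its wild-type control values all lay under the 10 CPM of the filter, so VSNL1 was tested only through libraries of other groups. The S181E and Y396E libraries could together admit a gene to the test, while the wild-type and RQ libraries together could not. Falls of the mirror-image kind could thus be missing from the test. SYTL2, a synaptotagmin-like effector of RAB27 in vesicle docking, stood on firmer counts, with 13.0, 13.6 and 11.1 CPM in wild-type and 77.2, 62.4 and 108 CPM in S181E. The lowest S181E library lay several times above the highest wild-type library, and the rise was 6.60-fold (log2 fold change 2.72 ± 0.21, SE, edgeR adjusted p = 1.5e-08). FGF2, a fibroblast growth factor, rose from 10.6, 14.9 and 6.14 CPM to 42.6, 36.2 and 44.8 CPM. BMP4, a ligand of the BMP pathway, rose from 63.8, 66.6 and 34.9 CPM to 183, 176 and 177 CPM. Both mRNAs had groups that did not overlap, with rises of 3.92-fold and 3.25-fold (edgeR adjusted p = 1.5e-06 and 1.1e-07). EML1, which binds microtubules (1.85), the tubulin gene TUBA4A (1.73), the acetyltransferase KAT2B (1.55) and MLLT3, a reader of acylated histones (1.45), were also among the 12 highest.

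More abundant mRNAs rose by smaller factors. TXNRD1, the cytosolic thioredoxin reductase, had 505, 510.3 and 449.7 CPM in wild-type and 889, 931 and 874 CPM in S181E. The S181E libraries were higher throughout (log2 fold change 0.89 ± 0.08, SE, edgeR adjusted p = 1.6e-07). CDK6, a kinase that drives entry into S phase, had 152, 144 and 199 CPM against 342, 318 and 378 CPM. It rose 2.11-fold without overlap (edgeR adjusted p = 5.6e-06). CEP55, a protein of the midbody at the end of cell division, rose 2.13-fold, from 54.3 ± 2.93 CPM (SD, n = 3) to 115 ± 8.67 CPM (SD, n = 3).

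**Figure D2:**
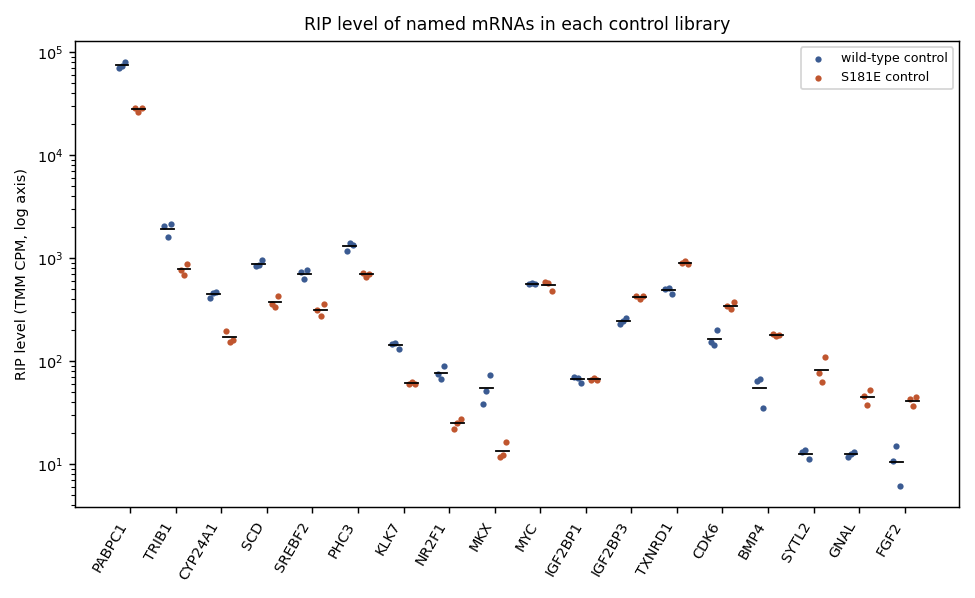
RIP level in TMM CPM (vertical log axis) of 18 named mRNAs in each of the 3 wild-type (blue) and 3 S181E (red) control libraries, with a bar at the mean of each group. The groups separate for PABPC1 through MKX on the lower side and for IGF2BP3 and TXNRD1 through FGF2 on the higher side, while MYC and IGF2BP1 overlap.

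Most of the called genes of chromosome 8 lay in one continuous stretch and fell. Of the 192 tested genes that start at 50 Mb or beyond on this chromosome (hg38), 106 (55.2%) were called lower and 0 were called higher, beside 8% and 12.8% of all tested genes. Their median log2 fold change was -0.52, and 91.7% of them lay below 0. The 121 tested genes before 50 Mb had a median of 0.17, with 11 called lower and 25 higher. The boundary of 50 Mb is a round position set after these values were seen, and no test was built on it. In bins of 10 Mb the median was negative in every bin from 40 Mb on, at -0.15 in the bin that starts at 40 Mb, -0.75 in the one at 50 Mb, -0.21 in the one at 80 Mb and -0.67 in the last, where 41 of 55 genes were called lower. No other chromosome had a median below -0.09, apart from the mitochondrial genome.

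The stretch holds genes of many kinds. It includes PABPC1, the ribosomal protein RPS20 (log2 fold change -1.58), the chromatin remodeler CHD7 (-1.39), the pseudokinase TRIB1 (-1.30), the squalene epoxidase SQLE (-1.11), the m6A reader YTHDF3 (-1.03) and the translation initiation factor subunits EIF3E (-0.53) and EIF3H (-0.63). TRIB1, the most abundant of them after PABPC1 by wild-type level, had 2059, 1598 and 2133 CPM in wild-type and 759, 688 and 882 CPM in S181E libraries. CHD7 had 366, 370.1 and 369.7 CPM against 145, 148 and 127 CPM. Neither gene had overlapping groups (edgeR adjusted p = 5.5e-07 and 1.5e-08). MYC lies in the same stretch and was not called, with 558, 574 and 565 CPM in wild-type and 584, 569 and 481 CPM in S181E (log2 fold change -0.05 ± 0.09, SE, edgeR adjusted p = 0.77).

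Without PABPC1, the genes of this stretch held 2.25 to 2.33% of the protein-coding counts in the wild-type control libraries and 1.65 to 1.71% in the S181E control libraries. The ranges did not overlap, and the same held after arsenite, with 1.87 to 1.98% in wild-type and 1.43 to 1.46% in S181E. The Y396E control libraries held 1.61 to 1.67% and the RQ control libraries 2.31 to 2.45%. The median log2 fold change of the stretch to the same wild-type libraries was -0.56 for Y396E and 0.05 for RQ, and it was -0.56 for S181E in arsenite. Y396E had 122 of the 192 genes called lower and 1 higher, where it had 28.9% of all tested genes called, 12.7% lower and 16.2% higher. RQ had 4 called lower and 7 higher, where it had 6.34% of all tested genes called, 2.83% lower and 3.51% higher. S181E in arsenite had 113 called lower and 0 higher, where 7.53% of all tested genes were called, 5.34% lower and 2.2% higher. In the parental control library, whose cells carry neither fusion, the stretch held 3.31%. That library holds bead background, so its share is not a reference for the shares of the fusion libraries. Genomic copy number and the RNA level in the lysate were not analysed here, and their part in these values was not tested. The model of both groups alone called 52 genes of the stretch lower and 0 higher, with a median of -0.53. With all chromosome 8 genes left out of the scaling and the test, 730 genes were called lower and 834 higher.

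**Figure D3:**
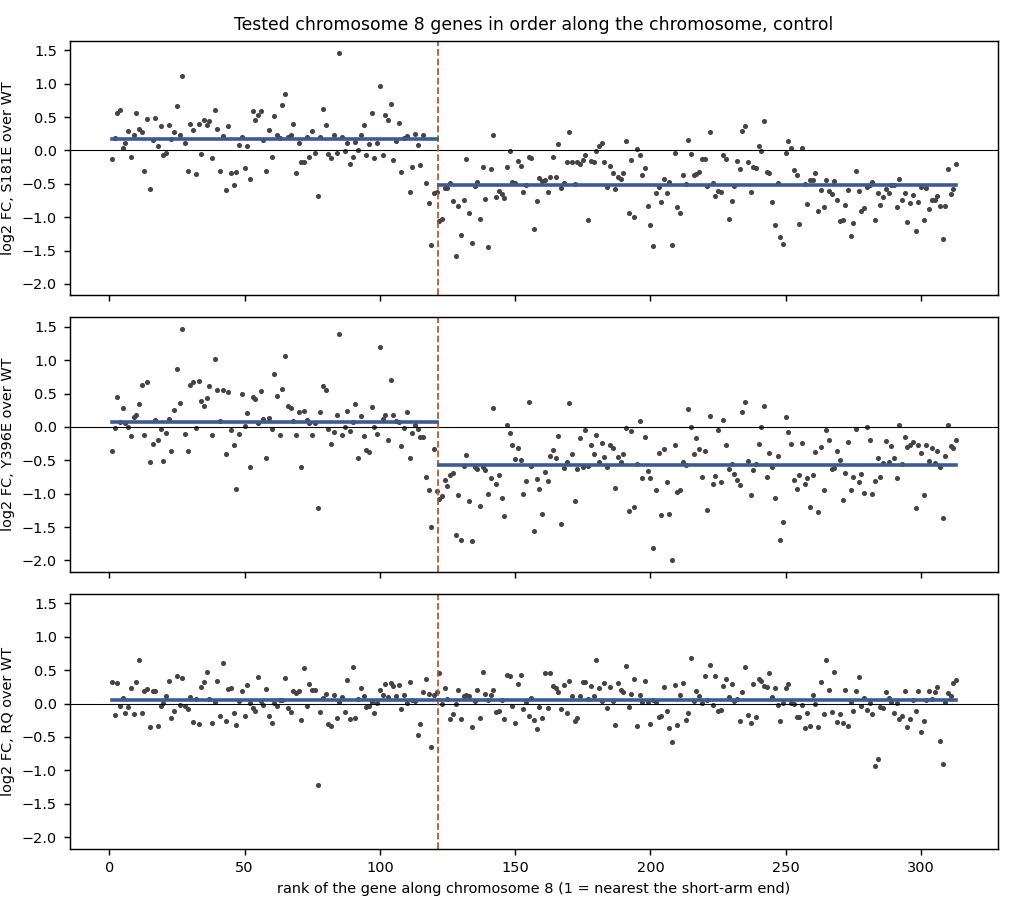
Log2 fold change over wild-type under control conditions (vertical axis) of the 313 tested chromosome 8 genes, in order of their rank along the chromosome (horizontal axis), for S181E, Y396E and RQ from top to bottom. Blue bars are the medians of the genes on either side of the dashed line at 50 Mb: beyond it the S181E median is -0.52 and the Y396E median -0.56, while the RQ median is 0.05.

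Of 20 listed mRNAs that IGF2BP1 is known to bind, 16 were tested. Of these 1 (6.25%) was called lower and 3 (18.8%) higher, beside 8% and 12.8% of all tested genes, and the median log2 fold change was 0.09. The number called higher was 1 without S181E replicate 1 or wild-type replicate 3, and the model of these groups alone called 0 of the listed targets in either direction, so that the calls of HMGA1, EIF2A and ACTB were lost there. HMGA1, an architectural chromatin protein, fell from 45318, 42477 and 36031 CPM to 29078, 30298 and 28252 CPM, without overlap (log2 fold change -0.49 ± 0.11, SE, edgeR adjusted p = 0.0034). The HMGA1 and LIPA calls were also lost under glmTreat, which tests for a change above 20%. HMGA2 had 2861, 2776 and 3398 CPM in wild-type and 2768, 2351 and 2868 CPM in S181E, and the groups overlapped (log2 fold change -0.17 ± 0.12, SE, edgeR adjusted p = 0.34). The higher genes included EIF2A and ACTB, at log2 fold changes of 0.48 and 0.43. ACTB, which encodes beta-actin, had 723, 722 and 644 CPM in wild-type and 894, 1125 and 784 CPM in S181E, but in the parental library it had 3859 counts, a level of 2605 CPM that lay above both groups. The ACTB call (edgeR adjusted p = 0.043) was lost without S181E replicate 2 (log2 fold change 0.28, edgeR adjusted p = 0.22), and also without S181E replicate 1 and without any of the wild-type replicates. GARS1 and XBP1 did not pass the test, at -0.09 ± 0.11 and -0.23 ± 0.17 (SE, edgeR adjusted p = 0.61 and 0.37). LIPA, lysosomal acid lipase, rose from 17.1, 19.7 and 13.7 CPM to 22.5, 30.0 and 26.1 CPM (edgeR adjusted p = 0.0083), a call lost in the model of these groups alone, and CCDC127 and IGF2 were below the filter on low values.

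The zipcode that IGF2BP1 is known to bind in beta-actin mRNA is a bipartite element, and its letters were looked for in the 3′ UTRs of all tested genes. The search took CGGACT followed after 10 to 25 bases by ACAC, or by ACAT, or by either of these words with C as its first letter, on the transcribed strand of 1 annotated transcript per gene. It found the beta-actin zipcode itself and a match in 129 of 8734 genes (1.48%), including 1.72% of the genes called lower and 1.7% of those called higher. The matches of ACTB and of 5 other called genes are shown because they show how unlike in direction such genes were, with both parts in capitals, 5′ to 3′, on hg38. Apart from ACTB and GNAL these genes were chosen after their values were seen.
ACTB (chr7:5527721-5527746, minus strand): CGGACTatgacttagttgcgttACAC
GNAL (chr18:11881171-11881195, plus strand): CGGACTgcctgactgccagccCCAT
ELAVL1 (chr19:7960032-7960057, minus strand): CGGACTtgaaaaatcgaaattgACAT
PDGFB (chr22:39224844-39224865, minus strand): CGGACTccatggctaagaCCAC
DAPK3 (chr19:3958526-3958547, minus strand): CGGACTcctccgcgagccCCAT
EFNB2 (chr13:106492780-106492802, minus strand): CGGACTgctgtgccgcgtcCCAC
GNAL, an olfactory type G protein subunit, rose 3.67-fold, from 11.6, 12.6 and 13.1 CPM to 45.7, 37.2 and 52.5 CPM, with no overlap (edgeR adjusted p = 5.8e-08). ELAVL1, the RNA-binding protein HuR, and the growth factor PDGFB were also called higher (0.44 and 0.75 on the log2 scale). The kinase DAPK3 and the ephrin EFNB2 were called lower (-1.02 and -0.60). A match describes letters and is not evidence of a bound site.

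Genes of cholesterol synthesis and uptake were called in the lower direction alone. Of 22 tested genes 8 (36.4%) were called lower, beside 8% of all tested genes, and 0 higher, with a median log2 fold change of -0.38 beside 0.05 over all tested genes. SREBF2, the factor that switches these genes on, had 735, 619.9 and 764 CPM in wild-type and 311, 275 and 354 CPM in S181E. All S181E values lay below all wild-type values (log2 fold change -1.16 ± 0.10, SE, edgeR adjusted p = 3.4e-08). SQLE on chromosome 8 and TM7SF2 were also lower, at -1.11 and -0.89. The model of both groups alone called 4 of the list lower.

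The kallikrein-related peptidases are secreted proteases encoded in a cluster on chromosome 19. Of 5 tested genes 4 (80%) were called lower and 0 higher, beside 8% and 12.8% of all tested genes. Their median log2 fold change was -1.07. KLK7 had 146, 151 and 132 CPM in wild-type and 59.7, 62.3 and 60.4 CPM in S181E, and KLK6 had 76.1, 74.8 and 49.4 CPM against 29.6, 29.4 and 26.4 CPM. Both were without overlap (edgeR adjusted p = 4.2e-09 and 9.9e-06). KLK10 and KLK8 stood at -1.07 and -1.02, and the KLK8 call was lost without S181E replicate 3 (-0.89) or wild-type replicate 2 (-0.76), and in the model of both groups alone, which called 3 of the list lower. In the parental library KLK6 and KLK8 had 0 counts, KLK7 had 97 and KLK10 had 129.

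Cytosolic ribosomal protein mRNAs were called lower in 12 of 79 tested genes (15.2%, beside 8% of all tested genes) and higher in 0, with a median of -0.37. RPS20, RPL8 and RPL30, which lie in the chromosome 8 stretch, led the list at -1.58, -0.84 and -0.83. RPS20 had 323, 439 and 305 CPM in wild-type and 119.6, 144 and 90.5 CPM in S181E, below its level of 711 CPM in the parental library. The RPL8 call was lost without S181E replicate 3 (-0.67). The count for the list rested on single libraries, with 4 called without S181E replicate 3, 6 without wild-type replicate 2, 24 without wild-type replicate 3 and 6 in the model of both groups alone. Many ribosomal protein genes have near-identical processed copies, which makes their levels uncertain. Mitochondrially encoded mRNAs were called lower in 6 of 13 genes (46.2%, beside 8% of all tested genes) and higher in 0, with a median of -0.45. They held 14.9 to 20.8% of the protein-coding counts in wild-type and 11.7 to 16.2% in S181E libraries, and these ranges overlapped. That count fell to 2 without S181E replicate 2 and to 2 without wild-type replicate 3, and it was 3 in the model of both groups alone. Of 66 tested nuclear-encoded respiratory chain genes 5 (7.58%) were called lower and 2 (3.03%) higher, beside 8% and 12.8% of all tested genes, with 3 lower without S181E replicate 3 or wild-type replicate 2, 8 lower without wild-type replicate 3, and 0 higher without S181E replicate 1. The model of both groups alone called 2 of them lower and 0 higher.

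Cell cycle genes leaned the other way. Of 31 tested cyclin, E2F and replication genes 11 (35.5%) were called higher and 1 (3.23%) lower, beside 12.8% and 8% of all tested genes, with a median of 0.25. The model of both groups alone called 3 higher and 1 lower, and the CDK1 call was lost there. CDK6 was followed by CDK1, the mitotic kinase (0.85), CCNA2, cyclin A2 (0.77), and MCM2, a subunit of the replicative helicase (0.75). CCNA2 had 49.4, 55.8 and 61.2 CPM in wild-type and 92.8, 98.6 and 89.6 CPM in S181E, without overlap (edgeR adjusted p = 9.6e-05). The single gene called lower, MCM4, lies on chromosome 8 at 47960898 to 47978160, just before the stretch described above. Actin and its regulators had 6 of 19 (31.6%, beside 12.8% of all tested genes) called higher and 0 lower, with CFL2 at 0.71, ARPC5 at 0.60 and CAPZA1 at 0.50. The number called higher was 1 in the model of both groups alone, where CFL2 and ARPC5 were lost, and 3 by glmTreat. Targets of ATF4, the factor of the integrated stress response, had 6 of 19 (31.6%) called higher and 1 lower, against 4 and 0 in that model. SLC7A11, the cystine transporter, rose from 54.8, 54.2 and 64.4 CPM to 97.6, 104 and 119.7 CPM (edgeR adjusted p = 1.6e-05). XPOT, PHGDH and PSAT1 were called as well, at 0.68, 0.75 and 0.65, of which PHGDH and PSAT1 were lost in that model, while CEBPB was lower (-0.52) with overlapping groups, a call lost without S181E replicate 1 or 3 or wild-type replicate 2.

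Apart from the Polycomb genes, members of the remaining lists went both ways, where 8% of all tested genes were called lower and 12.8% higher. Among 15 tested poly(A)-binding proteins and partners PABPC1 was the only one called lower, and ETF1 and GSPT1 of translation termination and the poly(A)-binding LARP4 were called higher (0.68, 0.35 and 0.48). The GSPT1 call was lost without S181E replicate 1 or 3 or wild-type replicate 3 (0.31, 0.36 and 0.19). Translation initiation factors had 5 of 36 (13.9%) called lower, led by EIF3H and EIF3G (-0.63 and -0.58), and 7 (19.4%) called higher, led by EIF2B1 and EIF2S1 (0.67 and 0.61). EIF2B1 was lost without S181E replicate 2 (0.49) or wild-type replicate 1 (0.46). Of 20 stress granule proteins 5 (25%) were called higher, among them TIA1 and G3BP2 (0.67 and 0.65), and PABPC1 and YBX1 (10% of the list) were called lower (-0.63 for YBX1). Of 20 m6A writers, erasers and readers YTHDF3 and VIRMA of chromosome 8 were called lower (-0.58 for VIRMA) and 5 (25%) were called higher, or 3 without S181E replicate 3 or wild-type replicate 3. Among 23 Polycomb genes PHC3 and PHC2 (8.7%) were lower and 0 were higher, or 2 higher without S181E replicate 2 or wild-type replicate 3. Of 27 tested CHD and BAF remodelers 3 (11.1%) were called lower and 1 (3.7%) higher. The lower ones were CHD7 of chromosome 8, ARID1A and CHD9. ARID1A fell from 1118, 1337 and 1116 CPM to 689, 634 and 685 CPM (edgeR adjusted p = 6.8e-06). The CHD9 call was lost in 11 of the alternative settings. The model of both groups alone called 1 lower and 1 higher among the poly(A)-binding proteins and partners, 3 and 2 among the initiation factors, 2 and 2 among the stress granule proteins, 1 and 0 among the m6A genes and 1 and 0 among the Polycomb genes. Of the genes named here it lost LARP4, GSPT1, EIF3G, EIF2B1, TIA1, VIRMA, PHC2 and CHD9.

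Over all tested genes 12.8% were called higher and 8% lower, which is the background for the lists that follow. Of 21 tested BMP and TGF-beta genes 4 (19%) were called higher, led by BMP4 and the co-receptor TGFBR3 (1.05), and 2 (9.52%) were called lower. These counts fell to 2 higher without S181E replicate 1 or 3 or wild-type replicate 2, and to 0 lower without S181E replicate 2 or wild-type replicate 3. Among 6 tested RAB27 and synaptotagmin-like genes SYTL2 and SYTL3 were higher, while EXPH5 and MLPH, other RAB27 effectors, were lower at -0.74 and -0.58. Both of these were lost without single libraries, EXPH5 without S181E replicate 2 (-0.49) or wild-type replicate 1 (-0.68) and MLPH without S181E replicate 3 (-0.52) or wild-type replicate 2 (-0.30). SYTL1 was the third one called lower (-0.78), and its call was lost without any of the S181E replicates and without wild-type replicate 1, where the value was -0.17. Targets of p53 had 5 of 20 (25%) called lower, with GDF15 at -0.72 and BTG2 at -0.64, and 2 higher, with 3 lower without S181E replicate 2 and 1 higher whichever replicate was left out. Of 25 Mediator subunits 2 (8%) were called in each direction, of 20 aminoacyl-tRNA synthetases 1 (5%) was lower and 4 (20%) were higher, and of 8 tested MYC and MAX network genes MXD4 and MNT were lower and MLX was higher (-0.45 for MNT and 0.32 for MLX). The MNT call was lost without S181E replicate 2 or wild-type replicate 3 (-0.38 and -0.39), and that of MLX without S181E replicate 1 or 2 or wild-type replicate 2 or 3 (0.26 to 0.32). Mediator had 1 called lower without S181E replicate 1 or 3 or wild-type replicate 1 or 3, and the synthetases 2 called higher without wild-type replicate 3 and 0 called lower without S181E replicate 2. In the model of both groups alone 0 were lower and 1 was higher in the BMP and TGF-beta, RAB27 and Mediator lists each, 3 and 0 among the p53 targets, 1 and 0 in the MYC and MAX network and 0 and 0 among the synthetases, with TGFBR3, EXPH5, MLPH, MNT and MLX among the calls lost.

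**Figure D4:**
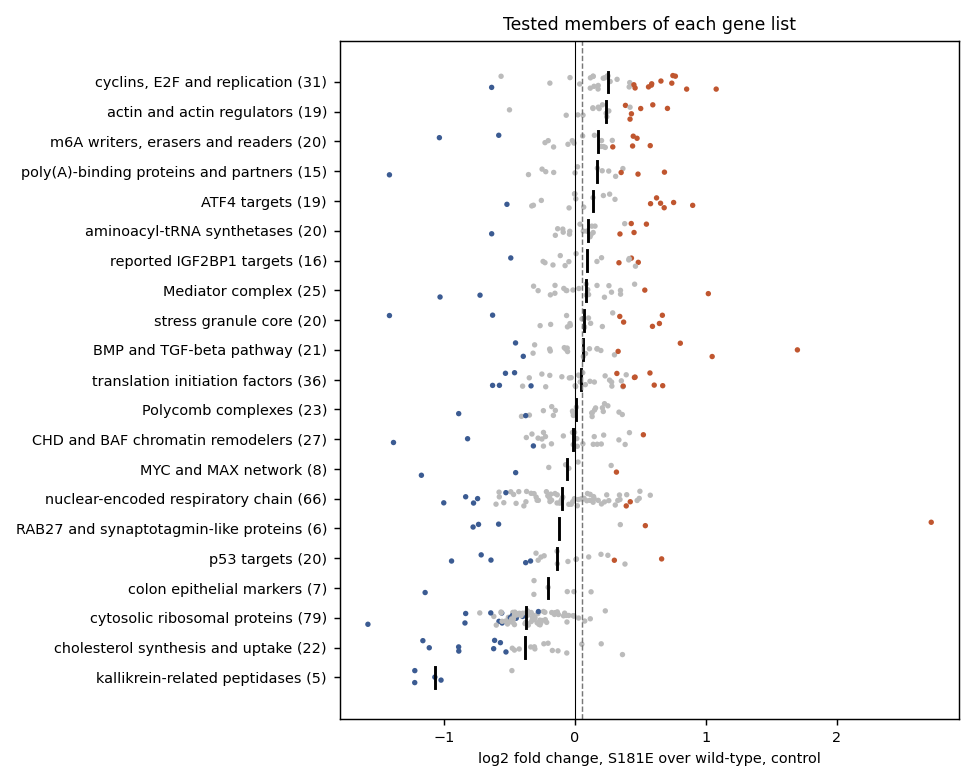
Log2 fold change of S181E over wild-type under control conditions (horizontal axis) for the tested members of each gene list, with the number tested in parentheses, points in blue for genes called lower, in red for genes called higher and in grey otherwise, and a black bar at the list's median. The dashed line is the median of all tested genes, 0.05, and the list medians run from -1.07 for the kallikreins to 0.25 for the cell cycle genes.

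Base composition and 3′ UTR length went with direction. The median GC content of the annotated transcript was 54.6% for the genes called lower, 42.6% for those called higher and 48.2% for all tested genes, and it was 55.2% for the genes called lower outside the chromosome 8 stretch. The 3′ UTR had a median length of 1284 bases for the lower, 2028 for the higher and 1534 for all genes. The coding sequence ran the other way, at 1533, 1350 and 1461 bases, and the whole transcript differed little, at 3596, 3817 and 3682 bases. The letters GGAC stood 3.06, 1.80 and 2.36 times per kb of 3′ UTR in these groups (medians for lower, higher and all genes), and CATA, CATC and CATT together 10.2, 13.1 and 11.6 times. The GC content of the 3′ UTR differed as well, with medians of 49.2%, 37.5% and 42.6%. GGAC is richer in G and C than the other words, and no comparison at matched GC content was made. In the chromosome 8 stretch the medians were 1.74 for GGAC and 13.2 for the other words. In deciles of the tested genes by GC content, the median log2 fold change went from 0.23 in the lowest decile, with 236 of 874 genes called higher and 36 lower, to -0.15 in the highest, with 21 higher and 161 lower.

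Single libraries differed in this respect within the groups as well. In the highest decile of GC content the median log2 ratio to the wild-type mean was 0.13, -0.03 and -0.11 in the 3 wild-type libraries and -0.19, -0.10 and -0.24 in the 3 S181E libraries. Wild-type replicate 1 thus rose with GC content, and among the S181E libraries replicate 2 changed least with it. Across the 8734 genes, which are not independent replicates, Spearman's rho of the log2 fold change with GC content was -0.30 for S181E in control, -0.08 for S181E in arsenite and 0.18 for Y396E in control. With each library's trend over GC content removed, a setting added after seeing the data, 801 genes were called lower and 827 higher, and the chromosome 8 stretch had 128 called lower with a median of -0.55.

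**Figure D5:**
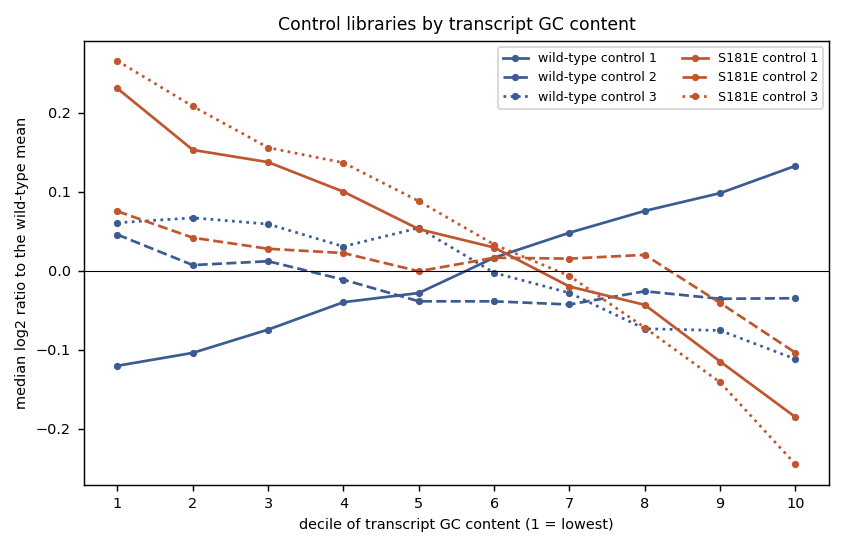
Median log2 ratio to the mean of the wild-type control libraries (vertical axis) in deciles of the tested genes by transcript GC content (horizontal axis, 1 the lowest), with 1 line per control library, wild-type in blue and S181E in red. In the highest decile the wild-type libraries lie between -0.11 and 0.13 and the S181E libraries between -0.24 and -0.10.

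Genes of both directions included mRNAs above and mRNAs near the bead background. The higher of the wild-type and S181E means was set against the parental library, or against its floor of 3 counts. A level at least 4-fold above it was reached by 387 of the 699 genes called lower (55.4%) and by 507 of the 1119 called higher (45.3%). Of all tested genes 49.6% reached it. A gene could pass through its higher group alone, so these shares do not describe the lower group. The parental library had 0 counts for 40.9% of the tested genes, so these shares rest on a shallow background. With the test limited to such genes, which were selected by levels of the same libraries, 392 were called lower and 517 higher.

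The S181E change was tested for a difference between arsenite and control, to ask whether stress altered it. At the same thresholds 34 genes (0.389%) differed, 24 with a lower (0.275%) and 10 with a higher (0.114%) change in arsenite, while 1128 genes had an unadjusted p under 0.05. JUN, a subunit of AP-1, had a log2 fold change of -1.23 in control and -0.18 in arsenite, a difference of 1.06 ± 0.19 (SE, edgeR adjusted p = 0.029). WNT9A, a WNT ligand, went from -1.25 to -0.04, and DSP, the desmosomal protein desmoplakin, from -0.98 to 0.03. In the other direction ZNF25 went from 1.16 to -0.22 and MAP2, a microtubule-associated protein, from 0.85 to -0.39. INSIG1, which holds back cholesterol synthesis, was not called in control (-0.20) and was lower in arsenite (-1.29, difference -1.08 ± 0.21, SE, edgeR adjusted p = 0.033). IGF2BP3 went from 0.78 to 0.22 (difference -0.57 ± 0.11, SE, edgeR adjusted p = 0.033). The number of such genes was 4 without S181E control replicate 1 and 15 without replicate 3, and 87, 53 and 68 without wild-type control replicate 1, 2 and 3.

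S181E and Y396E, the phosphomimetic mutant of the second linker, were also compared directly under control conditions. Between them 883 genes (10.1%) were called, 314 lower (3.6%) and 569 higher (6.51%) in S181E. Against wild-type, 458 of the 699 lower and 629 of the 1119 higher S181E genes were also called in Y396E. Of all tested genes 28.9% were called in Y396E in either direction, 12.7% lower and 16.2% higher. The Y396E medians were -1.12 for the kallikreins, -0.27 for cholesterol genes and -0.25 for cytosolic ribosomal proteins. They were 0.50 for the cell cycle list, 0.29 for ATF4 targets and 0.21 for actin and its regulators. PABPC1 was lower than wild-type in both, with 2.71 ± 0.101% (SD, n = 3) of the protein-coding counts in S181E and 1.95 ± 0.150% (SD, n = 3) in Y396E, and the log2 difference between the mutants was 0.58 ± 0.12 (SE, edgeR adjusted p = 0.005). The ribosomal protein RPL41 (-0.56 and -2.22), the sorting nexin SNX3 (0.02 and -1.01) and the mitochondrial chaperone HSPD1 (0.04 and -0.97) stood higher in S181E. The receptor EPHA1 (-0.89 and 0.11) and the spectrin SPTB (-0.50 and 0.48) stood lower. HMGA2, not called in S181E, was 0.72 ± 0.12 higher on the log2 scale than in Y396E (SE, edgeR adjusted p = 0.0011). PHC3 was -0.89 in S181E and -0.96 in Y396E, and the direct test did not separate them (edgeR adjusted p = 0.63). Both sets of values against wild-type share the same wild-type libraries. Without S181E replicate 1 the number called between the mutants was 469, and without S181E replicate 3 it was 325.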

How the data were processed

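RIP-seq libraries were made from mCherry captures on RFP-Trap beads after rRNA depletion, with a directional kit. The authors aligned reads to hg38 with STAR 2.7.11b and deposited raw counts per gene from featureCounts (Subread 2.0.6, stranded, GENCODE 46 basic annotation), 1 file per library. Symbols and biotypes came from GENCODE 44 by Ensembl identifier: of 63086 genes, 61547 matched with version, 62541 in any version and 545 not at all.

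Protein-coding genes above 10 CPM (TMM) in at least 11.5 of 23 mCherry libraries were tested (8734) in 1 edgeR 4.0.16 quasi-likelihood model of 8 groups with no covariates (R 4.3.3). Genes were called at a Benjamini-Hochberg adjusted p under 0.05 and a change above 20%. SE is the log2 fold change over the square root of F. CPM printed per library used TMM over all 25 libraries. A parental level under 3 counts was set to 3 counts, 2.02 CPM, and such floors cover counting error only. Totals ran from 22246381 to 37942065 counts in the 6 libraries, and no pair of libraries was identical.

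Genes were named if the study's text names them, if they were among the 12 lowest or 12 highest calls without overlap, the 4 largest calls of a list, the 5 lowest adjusted p values per direction, the 3 extremes of each other contrast, or the 5 most abundant calls of chromosome 8. CEBPB, DAPK3, EFNB2, ELAVL1, MCM4, PDGFB and SYTL3 were named after their values were seen. A few items that the rule selects are not reported here. The comparison, its gene lists and the named genes were chosen with earlier results of these data known. Alternatives covered scaling, filter, tool, model, replicate block, biotypes and leaving out each replicate. RLE scaling, the method of DESeq2's size factors, was computed in edgeR, and DESeq2 1.42.0 gave the Wald test.

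The fit was tested on simulated data for S181E against wild-type in control, over 8734 genes. It called 46.3%, 92.5% and 100% of the 67, 67 and 66 genes changed by 0.5, 1 and 2 on the log2 scale, with 12 false calls of 171 and 0 wrong signs. Far fewer genes were changed there than the 20.8% called in the data, so this error rate need not hold for the data.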

Additional observations from a re-analysis of the deposited data

Results flagged for a closer look

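The S181E change of 10 of the genes described differed between arsenite and control by the interaction contrast of the edgeR model. It was less negative in arsenite for CLDN4, a tight junction protein (log2 difference 0.74, from -1.14 in control to -0.40 in arsenite, adjusted p = 0.044), DSP (1.01, adjusted p = 0.025), JUN (1.06, adjusted p = 0.029) and WNT9A (1.21, adjusted p = 0.035). It was smaller or turned negative for ETF1 (-0.61, from 0.68 to 0.07, adjusted p = 0.033), IGF2BP3 (-0.57, adjusted p = 0.033), MAP2 (-1.24, adjusted p = 0.042), SMARCD1 (-0.60, from 0.52 to -0.08, adjusted p = 0.035) and ZNF25 (-1.39, adjusted p = 0.034). For INSIG1 it grew more negative (-1.08, adjusted p = 0.033). A model of the 4 groups concerned alone called 0 genes for this difference.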

How the results depend on the processing

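The numbers of calls depended on the model and the scaling. For S181E against wild-type (699 lower and 1119 higher), a model of these groups alone gave 247 and 178, total counts without TMM 381 and 2431, glmTreat for a change above 20% 287 and 340, and genes at least 4-fold over the parental library 392 and 517, where fewer genes were tested. TMM restricted to genes no higher than in the parental library gave 769 and 696. Total counts moved the median of all genes to 0.22 and the share of lower among all calls from 38.5% to 13.6%. Leaving out 1 replicate gave 546 to 749 lower and 773 to 1174 higher. For the arsenite difference (34), the model of its groups gave 0 (edgeR, 880 at an unadjusted p under 0.05), the DESeq2 Wald test 138, glmTreat 1, and leaving out 1 replicate 4 to 87. For S181E against Y396E (883), these settings gave 384 in the model of both groups alone, 51 by glmTreat and 325 to 1265 without 1 replicate. The causes were not tested. With the trend over GC content removed, a setting chosen after seeing the data, 801 were lower and 827 higher. Of the values of 123 named genes under the alternatives, 2276 kept their side of the threshold, 183 no longer passed it, 11 newly passed it and 0 reversed.

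Deviations of same-numbered wild-type and S181E libraries correlated at -0.02, 0.22 and 0.30, and those of differently numbered libraries at -0.30 to 0.10. Whether the replicate numbers pair the samples is not settled by so few values, and the main model holds no replicate block. With the replicate block, 1050 genes were called lower and 1514 higher, 508 for the arsenite difference and 2040 between S181E and Y396E. The parental control library, at 1238013 counts, limits every value relative to bead background.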

Other observations

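Transcripts other than mRNAs, tested together with mRNAs by edgeR in a setting that kept all biotypes, were called lower in S181E more often than higher, whereas over all 7753 genes of that setting 559 were called lower and 1397 higher. Of 111 long noncoding RNAs 28 were called lower and 8 higher. GAS6-AS1 had 41.4, 39.6 and 40.1 CPM in wild-type and 13.2, 9.69 and 19.8 CPM in S181E libraries, without overlap (log2 fold change -1.50, edgeR adjusted p = 4.5e-05). NR2F1-AS1, the antisense neighbour of NR2F1, went the same way (-1.10), and the counting used strand. CASC19 and LNCOC1 of chromosome 8 stood at -0.95 and -1.11, and the nuclear RNA MALAT1 at -0.67. The shallow parental control library held 90 counts of LNCOC1 and 532 of MALAT1, so both were present in the bead background. It held 0 counts of CASC19, GAS6-AS1 and NR2F1-AS1.

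Small structural RNAs were lower as well, with 4 of 4 tested snRNAs, 4 of 6 snoRNAs and 2 of 2 miscellaneous RNAs called, beside the same 559 of 7753. RNU4-1, a spliceosomal RNA, averaged 298 CPM in wild-type and 81.0 CPM in S181E (-1.88, edgeR adjusted p = 2.3e-05). RN7SL1, the RNA of the signal recognition particle, averaged 645 and 314 CPM (-1.04, edgeR adjusted p = 1.8e-05). The parental control library held 9972 counts of RNU4-1 and 14800 of RN7SL1 despite its low depth, so these RNAs were abundant in the bead background. RNU4-2, RN7SL1 and similar RNAs have near-identical copies, and their counts are uncertain.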
